A study of Mus musculus with 6 samples.

Results

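The immediate-early transcription factor genes Fos, Fosb, Fosl1, Fosl2, Jun, Junb, Jund, Egr1, Egr2 and Ier2 were described on 6 Affymetrix arrays of mouse embryonic stem cells. They are 10 of 18193 genes named by the platform annotation, and they were taken as every probe set that the annotation assigns to 1 of these genes alone, 15 probe sets in all. Of the 10 genes, 5 had 2 probe sets, and the probe set with the highest mean signal gave the gene's level. The genes were selected on their measured day 4 and day 0 levels: the set was drawn up after Fos and Fosb had been seen to be lower at day 4 than at day 0, so levels and day 4 over day 0 differences are given as a description with no test.

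Both stem cell lines were Dnmt1, Dnmt3a and Dnmt3b triple knockouts and so lacked their own copies of these DNA methyltransferases. The deletion line ubiquitously expressed a DNMT1 without its N-terminal 602 amino acids, and the full-length line ubiquitously expressed complete DNMT1. Day 0 cells grew in 10% fetal bovine serum with leukaemia inhibitory factor (LIF), a cytokine that maintains mouse stem cells. For day 4, LIF was removed and embryoid bodies of 1 day were grown on as adherent cells for 3 days, and day 7 cells were kept for a further 3 days in medium with 10% KSR and 10 ng/ml Activin A, a ligand given to induce the primitive streak. Each line and day had 1 array, so no group had replicates, medium and time change together, and the DNMT1 form cannot be told apart from the line. The sources used here do not say whether each line was 1 clone, and no serum share was recorded from them for days 4 and 7. The source label of the deletion line's day 0 sample reads as differentiated cells, while its title gives day 0. The title was used.

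Immediate-early genes are switched on within minutes of a growth factor, serum or stress signal without new protein synthesis, and their messages are short-lived. Many are activated through ERK kinases and the serum response factor at CArG boxes, and through CREB-type factors at cAMP response elements. FOS proteins pair with JUN proteins to form the AP-1 transcription factor, EGR proteins are zinc finger factors, and IER2 is a nuclear immediate-early protein. In mouse stem cells both LIF and serum act on the ERK pathway.

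Promoter sequence is shown for the members with the largest day 4 over day 0 differences whose RefSeq promoter window was read, and for Jun, which varied little. Egr1 is not shown, since no window was read for it. For Egr2 the start whose stretch holds the most marked letters is shown. Each line gives the 150 bases before a RefSeq start (build GRCm38.p6), 5′ to 3′ on the gene's strand. Capitals mark the letters TGACG on either strand, the cAMP response element half-site, and in Egr2 also a CArG box.
Fos, chr12:85473740-85473889, plus strand: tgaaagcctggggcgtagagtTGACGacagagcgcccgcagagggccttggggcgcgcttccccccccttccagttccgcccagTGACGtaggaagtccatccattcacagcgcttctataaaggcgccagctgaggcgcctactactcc
Fosb, chr7:19310046-19310195, minus strand: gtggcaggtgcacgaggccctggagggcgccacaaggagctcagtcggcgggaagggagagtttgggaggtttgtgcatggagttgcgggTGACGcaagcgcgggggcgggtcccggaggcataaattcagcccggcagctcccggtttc
Egr2, chr10:67537719-67537868, plus strand: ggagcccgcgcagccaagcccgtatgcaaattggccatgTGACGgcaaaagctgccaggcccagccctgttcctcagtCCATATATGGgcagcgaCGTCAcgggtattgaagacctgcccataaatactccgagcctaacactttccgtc
Junb, chr8:84978749-84978898, minus strand: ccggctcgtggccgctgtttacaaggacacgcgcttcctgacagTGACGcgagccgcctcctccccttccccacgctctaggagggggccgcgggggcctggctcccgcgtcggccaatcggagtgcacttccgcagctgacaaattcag
Jun, chr4:95052223-95052372, minus strand: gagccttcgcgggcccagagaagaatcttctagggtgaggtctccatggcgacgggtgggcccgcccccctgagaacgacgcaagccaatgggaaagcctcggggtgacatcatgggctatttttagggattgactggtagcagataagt

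RefSeq windows of 300 bases, 250 before and 50 after a start, were read for 7 of the 10 genes, 11 windows in all. No window was read for Fosl1, Egr1 and Ier2, so nothing is said of their promoters. Member windows on 1 chromosome were left out beforehand, which was not done for the windows of all genes. At least 1 TGACG on either strand was present for Fos, Fosb, Junb and Egr2, and none was in the windows of Fosl2, Jun and Jund. Of all 32851 windows in the table, 20.8% held TGACG. That is a share per window, whereas a gene with several windows counted if any 1 held the letters. The motifs were chosen after the sequences were seen, so nothing is read from which genes hold them. Among the 7 genes read, the CArG box was found for Egr2 only, in 4 of its 5 windows, 3 of which nearly coincide. It was in 1.63% of all windows. The EGR site GCGNGGGCG was present for Fosb and Fosl2 and in 5.55% of all windows. The AP-1 site TGANTCA, in 7.81% of all windows, and the full element TGACGTCA, which contains the half-site and was in 1.79%, were in none of the 11. Letters missing from a window say nothing about the region outside it.

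Levels are log2 MAS5 signals. Signals below a floor of 41.2 (log2 5.37), the median over arrays of each array's 40th percentile, were set to it, so a fold against a level at the floor can only be larger than the value given, and is introduced by at least. The mean signal of all 10 genes reached the floor, as did that of 13277 of the 18193 genes, called measured here. Where 3 values follow each other for a line, they belong to days 0, 4 and 7 in that order. Signals cannot be compared between probe sets, so each gene is read across arrays only.

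Among the FOS family, Fos and Fosb were far higher at day 0 than later. Fos, the founding FOS member, read 13.57, 8.85 and 9.52 in the deletion line, and 13.41, 9.14 and 10.75 in the full-length line. Both day 0 arrays stood above every later array, with a gap of 2.66 between the lower day 0 level and the highest later level, and in both lines day 7 lay between days 4 and 0. At day 4 Fos was 26.4-fold lower than at day 0 in the deletion line and 19.3-fold lower in the full-length line. Fewer cells that express a gene and less RNA per cell cannot be told apart in these bulk samples. Fosb, which encodes a close relative of FOS, read 9.69, the floor and the floor in the deletion line, and 9.28, the floor and 5.41 in the full-length line. Its day 4 level was below day 0 by a log2 difference of at least -4.32 in the deletion line and at least -3.91 in the full-length line, at least 17.4-fold lower by the mean. By the mean over both lines, Fos ranked 3 from the lowest among the 13277 measured genes. That rank was taken on the contrast in view when the genes were chosen, and it depends on the floor. With the floor at the 20th percentile, the mean difference was -5.27 for Fosb and -4.495 for Fos.

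The other FOS members, which encode the proteins FRA1 and FRA2, varied less. Fosl1 read 6.79, 6.18 and the floor in the deletion line, and 6.96, 5.74 and 5.84 in the full-length line. Its level was near the floor throughout, and its dimmer probe set had a mean signal below the floor. Fosl2 read 8.31, 6.40 and 7.26 in the deletion line, and 7.91, 7.07 and 7.31 in the full-length line. Both day 0 levels were above all later levels for each gene, by 0.61 for Fosl1 and 0.60 for Fosl2. The dimmer Fosl2 probe set went against this, at 6.94, 7.25 and 6.59 in the deletion line and 6.15, 6.47 and 7.13 in the full-length line, so the day 0 excess of Fosl2 rests on 1 of its 2 probe sets.

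Of the JUN family, Junb was highest at day 0 and Jun and Jund were not. Jun, the main partner of FOS proteins, read 9.22, 9.04 and 9.06 in the deletion line, and 9.32, 9.62 and 9.74 in the full-length line, a range of 0.70 over all 6 arrays. A second Jun probe set gave 7.52, 7.31 and 7.00 in the deletion line, and 7.25, 7.86 and 7.94 in the full-length line. On both probe sets the deletion line had its highest level at day 0 and the full-length line its lowest. Jund, a JUN member often described as steadily expressed, read 12.17, 12.84 and 13.08 in the deletion line, and 12.19, 12.43 and 12.43 in the full-length line. Both day 0 levels of Jund were below all 4 later ones, and its dimmer probe set was below the floor on 5 arrays. Junb, a JUN member that growth factors induce, read 9.85, 8.49 and 8.65 in the deletion line, and 10.09, 8.25 and 8.77 in the full-length line. Its day 0 levels lay above the others by 1.08, and its day 4 level was 2.57-fold lower than at day 0 in the deletion line and 3.58-fold lower in the full-length line.

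Egr1 and Egr2 were also highest at day 0. Egr1, an early growth response factor and a widely used readout of ERK activity, read 13.00, 9.58 and 10.05 in the deletion line, and 13.09, 10.03 and 10.72 in the full-length line. The day 4 level was 10.7-fold lower than at day 0 in the deletion line and 8.34-fold lower in the full-length line. Egr2, known for its role in hindbrain and Schwann cell development, read 9.18, the floor and the floor in the deletion line, and 7.41, the floor and 5.68 in the full-length line. Its day 4 level was at least 14.1-fold lower in the deletion line and at least 4.13-fold lower in the full-length line. A second Egr2 probe set read 9.17, 4.40 and 0 in the deletion line, and 6.20, 4.64 and 0.91 in the full-length line, with all 4 later values below the floor. Ier2 read 12.66, 12.16 and 12.27 in the deletion line, and 13.14, 11.97 and 12.14 in the full-length line. Its day 0 levels were the 2 highest, by a gap of only 0.39.

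**Figure D1:**
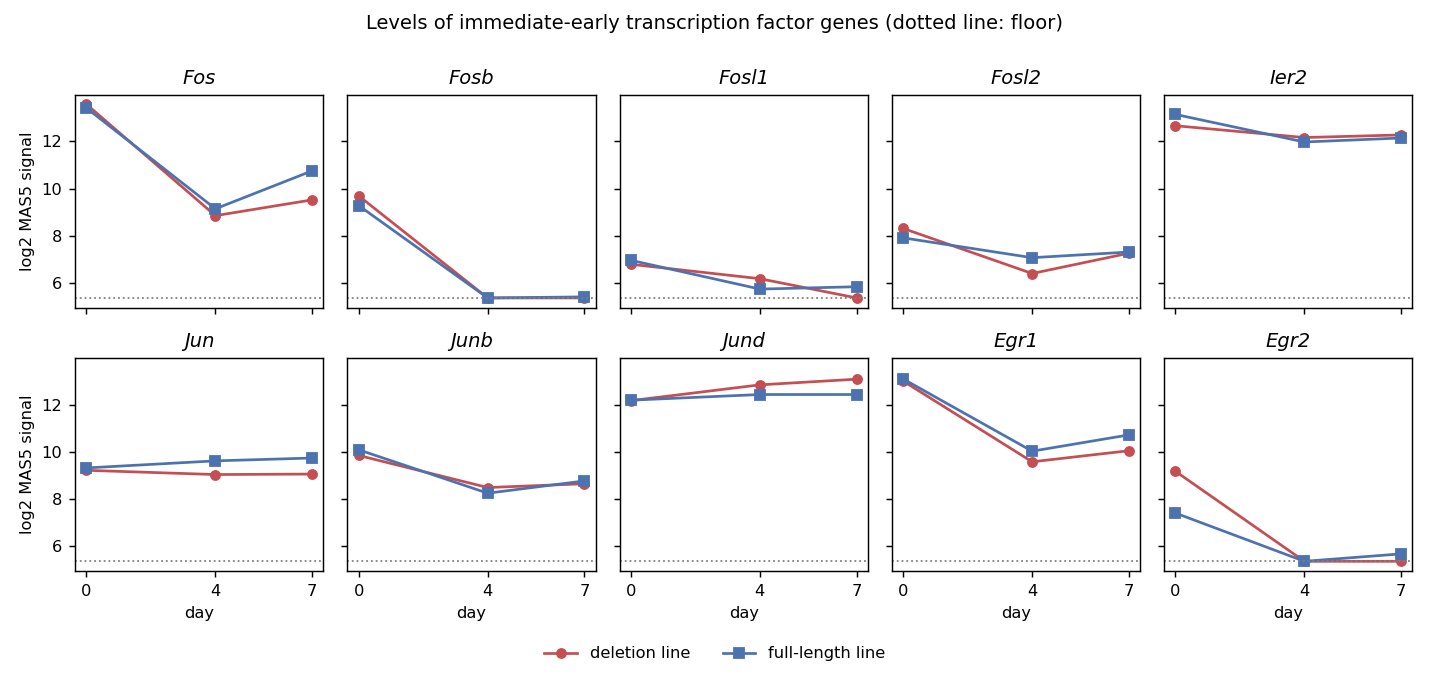
Level of each gene (log2 MAS5 signal, vertical axis) at days 0, 4 and 7 (horizontal axis) in the deletion line (circles) and the full-length line (squares), 1 array per point, with the floor of 5.37 dotted. Fos, Fosb, Egr1 and Egr2 stood highest at day 0 in both lines, while Jun stayed between 9.04 and 9.74 and Jund was lowest at day 0.

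Counted together, 5 of the 10 genes, Fos, Fosb, Junb, Egr1 and Egr2, were at least 2-fold lower at day 4 than at day 0 in both lines with the brighter array of each pair at least 2 times the floor, and 0 were higher. Among all measured genes, 1.72% were lower and 3.07% higher by the same rule. The members were chosen with this contrast in view, so nothing is read from the count. Just outside it, Fosl2 had a log2 difference of -1.91 in the deletion line and -0.84 in the full-length line, Fosl1 of -0.61 and -1.22, and Ier2 of -0.50 and -1.17. Jun, at -0.18 in the deletion line and 0.30 in the full-length line, and Jund, at 0.67 and 0.24, were not lower in both lines. The members' median difference was -1.49, against 0.045 over all measured genes. Both day 0 levels exceeded all 4 later levels for 8 of the 10 genes, and for 9.2% of all measured genes, and both were below them for Jund alone, against 13.2%.

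**Figure D2:**
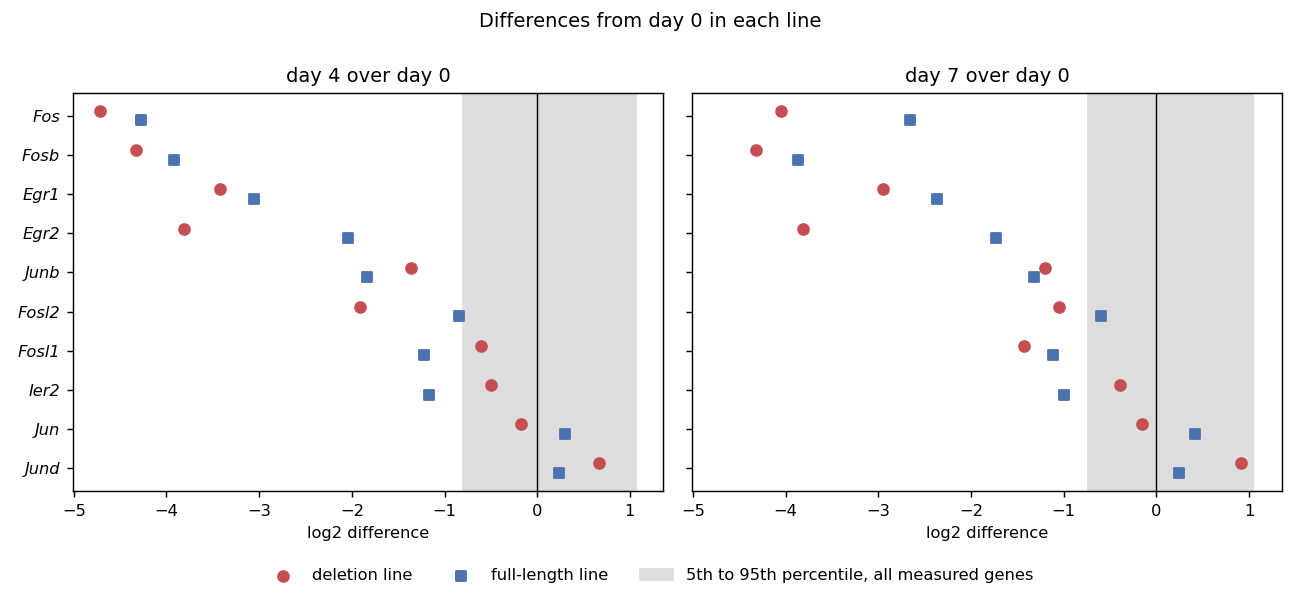
Log2 difference of each gene from day 0 (horizontal axis) at day 4 (left) and day 7 (right), deletion line as circles and full-length line as squares, with the middle 90% of the mean differences of all measured genes shaded. Fos, Fosb, Egr1, Egr2 and Junb lay left of the shaded range in both lines at both times, while Jun and Jund lay inside it.

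The lines differed in the size of the day 4 over day 0 difference to a varying degree. The level at day 4 was further below day 0 in the deletion line by 0.45 for Fos and 0.36 for Egr1 on the log2 scale, and nearer to it there by 0.48 for Junb, 0.61 for Fosl1 and 0.67 for Ier2. Fosl2 had -1.91 in the deletion line and -0.84 in the full-length line, and Jun had opposite signs. For Fosb both day 4 arrays were at the floor, so no order of the lines can be given. Egr2 had a day 4 over day 0 difference of -3.81 in the deletion line and -2.04 in the full-length line, both bounds set by the day 0 levels. These differences between lines have 1 array behind each value and were not tested.

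**Figure D3:**
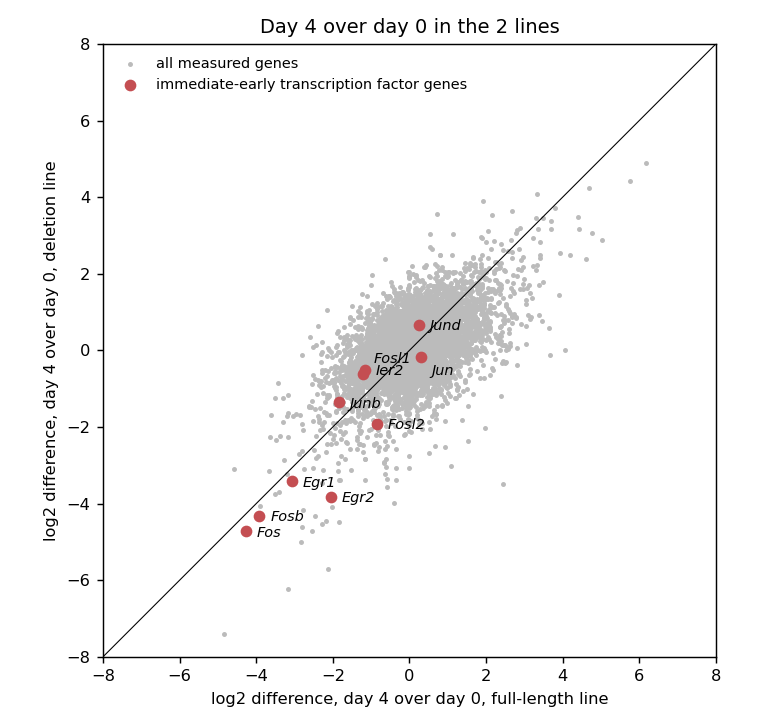
Log2 difference of day 4 over day 0 in the deletion line (vertical axis) and the full-length line (horizontal axis) for the 13277 measured genes (grey) and the 10 genes described (red, labelled), with the line of equal difference. Fos, at -4.72 in the deletion line and -4.27 in the full-length line, and Fosb, at -4.32 and -3.91 with day 4 at the floor, lay at the lower edge of all genes.

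At day 7, after the Activin A phase, the day 0 level had not returned for the genes that were lower at day 4. Fos, Fosb, Fosl1, Junb, Egr1 and Egr2, 6 of the 10, were at least 2-fold lower at day 7 than at day 0 in both lines, against 1.33% of measured genes, and 0 were higher, against 2.36%. This contrast shares the day 0 arrays with the one the choice of genes had in view, so the count is again a description. Fos was 16.6-fold lower at day 7 than at day 0 in the deletion line and 6.32-fold lower in the full-length line. Egr1 was 7.73-fold lower in the deletion line and 5.17-fold lower in the full-length line, and Junb 2.30-fold and 2.50-fold lower. Fosl1 entered the count with a level at the floor at day 7 in the deletion line.

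Between day 4 and day 7 the model across all genes, fitted with limma with line and day as factors, called 0 of the 10 genes and 2 of the 13277 measured genes, 0.0151%. At an unadjusted p under 0.05, 2 of the 10 genes and 11.9% of all measured genes were counted, 6.29% as higher and 5.63% as lower. By the 2-fold rule 0 members were higher, against 1.4%, and 0 lower, against 0.851%. The 2 genes at an unadjusted p under 0.05 were Fos and Egr1. Fos had a log2 difference of 1.14 (SE 0.31, adjusted p = 0.241) and was higher at day 7 in 2 of 2 lines. Egr1 had 0.58 (SE 0.20, adjusted p = 0.309) and was also higher in 2 of 2 lines. Within lines, day 7 over day 4 was 0.67 for Fos in the deletion line and 1.61 in the full-length line. For Egr1 it was 0.47 in the deletion line and 0.69 in the full-length line. The adjusted p of the other 8 genes lay between 0.625 and 0.992, with log2 differences from -0.36 for Fosl1 to 0.55 for Fosl2. Of these, Fosb and Egr2 were at the floor on 3 of the 4 day 4 and day 7 arrays and passed the filter on low signals through day 0, so their values here, 0.02 and 0.16, are set by the floor and say nothing of a change. The day 4 arrays are shared with the contrast in view when the genes were chosen, so these differences are not independent of that choice.

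The lines were compared as deletion over full-length. The mean line difference over the 3 days was called for 0 of the 10 genes by limma, and for 0 of all measured genes, while at an unadjusted p under 0.05 there were 1 of the 10 genes, Egr1, and 12.2% of all measured genes, 5.05% higher and 7.19% lower. Egr1 was lower in the deletion line on 3 of 3 days, with a log2 difference of -0.40 (SE 0.16, adjusted p = 0.387), and Jun on 3 of 3 days with -0.45 (SE 0.20, adjusted p = 0.426). Jund was higher in the deletion line on 2 of 3 days with 0.35 (SE 0.16, adjusted p = 0.429). The adjusted p of the other 7 genes lay between 0.498 and 0.954. Of these, Fosb and Egr2 were at the floor on 3 arrays, all of day 4 or day 7, and passed the filter on low signals through day 0. Their line differences, 0.12 and 0.485, are thus largely set by the floor and the day 0 arrays. None of these differences passed the threshold, which does not show that the lines had equal levels.

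Within single days, without a test, Egr2 and Fos were the members at least 2-fold apart. At day 0 Egr2 read 9.18 in the deletion line and 7.41 in the full-length line, 3.41-fold higher in the deletion line, where 3.15% of measured genes were at least 2-fold higher, and 0 members were lower, beside 2.82% of measured genes. The second Egr2 probe set read 9.17 in the deletion line and 6.20 in the full-length line at day 0, a log2 difference of 2.97. At day 7 Fos read 9.52 in the deletion line and 10.75 in the full-length line, a log2 difference of -1.23, where 8.92% of measured genes were at least 2-fold lower in the deletion line, and 0 members were higher, beside 3.95%. At day 4 no member was 2-fold apart, with log2 differences from -0.67 for Fosl2 to 0.44 for Fosl1, beside 2.43% of measured genes higher and 3.54% lower.

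Most other immediate-early genes were not past the 2-fold limits at day 4. The shares of all measured genes to set beside the counts of each list were 1.72% lower and 3.07% higher for day 4 over day 0. For day 7 over day 0 they were 1.33% lower and 2.36% higher. The lists were chosen with earlier results of these data known, so nothing is read from the counts. Of 22 measured genes of other immediate-early transcription factors, Klf4 and Nr4a1 were at least 2-fold lower at day 4 than at day 0 in both lines, 0 were higher and 20 were within the rule's limits. The list's median difference was -0.17, against the all-gene median given above. Klf4, which is also a factor of naive pluripotency, read 13.15, 9.40 and 10.94 in the deletion line, and 12.22, 8.71 and 10.08 in the full-length line. Nr4a1, an orphan nuclear receptor gene, read 11.14, 9.99 and 10.35 in the deletion line, and 10.76, 9.38 and 9.76 in the full-length line. Klf2, another Krüppel-like factor of naive stem cells, had log2 differences of -0.98 in the deletion line and -1.94 in the full-length line, and Klf6 of 0.51 and 1.11. Egr3 and Egr4, the remaining EGR genes, had mean differences of 0.20 and -0.16.

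Among 37 measured immediate-early genes that do not encode transcription factors, Socs3, Ptgs2 and Zfp36 were lower at day 4 by the same rule and 0 were higher. Socs3, a feedback inhibitor of LIF and STAT3 signalling, read 12.48, 10.23 and 9.29 in the deletion line, and 12.39, 8.76 and 10.35 in the full-length line. Ptgs2, which encodes the prostaglandin synthase COX2, read 8.67, 5.96 and 7.15 in the deletion line, and 9.21, 6.34 and 5.84 in the full-length line. Zfp36 encodes an RNA-binding protein that destabilises short-lived messages, and its mean difference was -1.52. The ERK feedback gene Spry4 had log2 differences of -0.62 in the deletion line and -1.65 in the full-length line. Dusp6, a phosphatase gene induced by ERK, had a mean difference of 0.66, and Ier3 of 0.82. The median of the list was -0.06.

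At day 7 several of these genes were higher than at day 0. Atf3, a stress-induced factor that pairs with JUN proteins, read 9.17 at day 7 in the deletion line, against 7.60 at day 0, and 8.73 at day 7 in the full-length line, against 7.27 at day 0. Rhob, Gadd45b and the coagulation factor gene F3 were also at least 2-fold higher at day 7 than at day 0 in both lines, and Klf4, Socs3, Ptgs2, Zfp36 and Spry4 at least 2-fold lower.

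Few genes upstream of the members were past the limits. Of 21 measured regulators, Stat3, which encodes the main transcription factor of LIF signalling, was at least 2-fold lower at day 4 in both lines, at 8.99 in the deletion line, against 10.09 at day 0, and at 8.86 in the full-length line, against 10.20 at day 0. The other 20 were within the limits, and the list's median was 0.04. Srf, which encodes the serum response factor, had a mean difference of -0.72, Pdgfrb of -0.97 and Mapk10 of 0.69. Of 13 measured partners and corepressors of AP-1 and EGR factors, 0 were past the limits at day 4, and the median was -0.09, with Nab2, a corepressor of EGR proteins and itself an EGR target, at -0.99, Batf3 at 0.82, Atf4 at 0.74 and Nfe2l2 at 0.38. At day 7 Atf3 was the 1 partner gene past the limits against day 0.

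Of 18 measured genes described in other work as AP-1 or EGR targets, Mmp3, Timp1, Cd44 and Lox were lower at day 4 in both lines and Gja1 was higher. Lox, which encodes a collagen cross-linking enzyme, read 10.83, 6.23 and 9.48 in the deletion line, and 9.20, 6.39 and 5.45 in the full-length line. Cd44, a hyaluronan receptor gene, read 9.30, 6.22 and 7.28 in the deletion line, and 9.31, 6.79 and 6.35 in the full-length line. Mmp3, a matrix protease gene, read 9.53 in the deletion line and 8.14 in the full-length line at day 0, with both day 4 arrays at the floor. The protease inhibitor gene Timp1 had a mean difference of -1.82. The list's median was -0.49.

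In a list of heat shock and dissociation stress genes, 0 of 15 measured genes were past the limits at day 4, with a median of -0.08. Stress during cell handling was not tested. The largest mean differences at day 4 were -0.70 for Hspb8, -0.45 for Hsph1, -0.26 for Dnajb4 and -0.20 for Dnajb1. At day 7 Hspb8 and Ddit3 were at least 2-fold higher than at day 0 in both lines. In these lists and those of cell type markers, limma called 0 genes between days 4 and 7 and 0 between the lines.

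**Figure D4:**
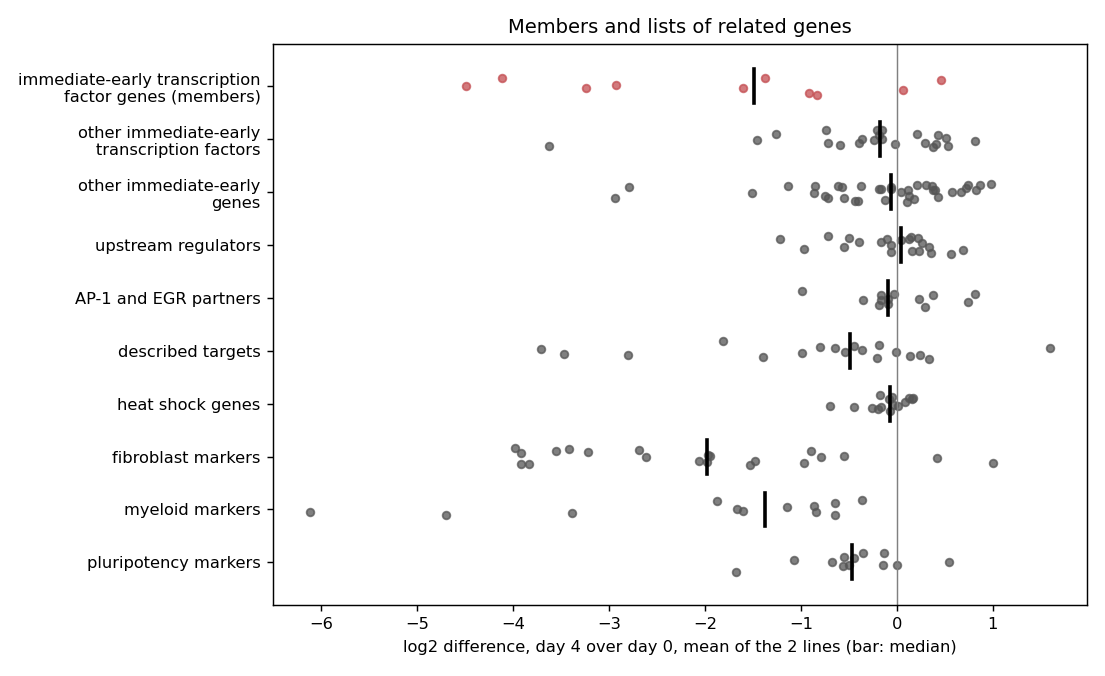
Mean over both lines of the log2 difference of day 4 over day 0 (horizontal axis) for the 10 genes described (red) and the measured genes of each related list (grey), with the median as a black bar. The median was -1.49 for the members, -0.17 and -0.06 for the other immediate-early lists, -1.98 for the fibroblast markers and -1.37 for the myeloid markers. The members were chosen with this contrast in view, so nothing is read from the place of their median.

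The summed signals of fibroblast and myeloid markers were also highest at day 0, though not those of every marker. Of 21 measured fibroblast markers, 12 were at least 2-fold lower at day 4 than at day 0 in both lines, 0 were higher, and the median difference was -1.98, while 9 were not past the limits. Their summed signal was 22135, 4413 and 5822 in the deletion line, and 11510, 9429 and 8036 in the full-length line. Acta2, a smooth muscle actin gene in this list, read 11.07 at day 4 in the deletion line and 12.71 on the same day in the full-length line, and without it, a choice made after the values were seen, the sums were 20129, 2263 and 3802 in the deletion line, and 9715, 2729 and 3232 in the full-length line. S100a4 had a mean difference of -3.98, Postn of -3.91, Col3a1 of -3.91 and Tnc of -3.83, and the last 3 had 1 array each at the floor. At or above the floor were 21, 13 and 20 of the markers in the deletion line at days 0, 4 and 7, and 20, 17 and 16 in the full-length line.

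Of 12 measured myeloid markers, 5 were lower at day 4 in both lines and 0 higher. Their summed signal was 13652, 1040 and 1408 in the deletion line, and 3506, 867 and 1835 in the full-length line. The lysozyme genes Lyz1 and Lyz2 and the protease gene Ctss had mean differences of -6.11, -4.70 and -3.38, and the complement gene C1qb of -1.87, all bounds. The list's median was -1.37. The other 7 were not past the limits in both lines. Cd68 read 8.77, 8.81 and 9.33 in the deletion line, and 9.30, 7.98 and 9.81 in the full-length line. Csf1r, a growth factor receptor gene, read 8.24, 6.31 and 8.52 in the deletion line, and 6.86, 7.10 and 8.88 in the full-length line. Csf1r and the remaining genes were at least 2-fold lower at day 4 in the deletion line only. The difference was -2.57 there and -0.62 in the full-length line for C1qa. Tyrobp had -2.17 and -0.11, Fcer1g -2.06 and 0.33, Adgre1 -1.47 and 0.17, and Cd14 -1.45 and 0.72, in the same order. Of 16 listed genes on the array, 14, 5 and 5 reached the floor in the deletion line, and 12, 9 and 6 in the full-length line. Itgam and Aif1, defining markers of this lineage, were below the floor on all 6 arrays. Ptprc was below it on the 4 arrays of days 4 and 7. At day 0 Ptprc was just above the floor, at 5.88 in the deletion line and 5.38 in the full-length line. The 12 pluripotency markers, which check the labelled cell type, were above the floor on all 6 arrays, with sums of 127967, 116471 and 126424 in the deletion line, and 159708, 98166 and 99439 in the full-length line. Esrrb was the 1 marker at least 2-fold lower at day 4 in both lines. Zfp42, Tdgf1 and Fgf4 had mean differences of -1.08, -0.68 and -0.56.

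At day 0 the fibroblast sum was 1.92-fold higher in the deletion line than in the full-length line, or 2.07-fold without Acta2, and the myeloid sum 3.89-fold higher. Fos was 1.12-fold and Fosb 1.33-fold higher in the deletion line on these arrays, and Egr1 was at 0.94 times its full-length level. Each of these values sets 1 array against 1 array. Egr2 was 3.41-fold higher in the deletion line by its gene level, and its second probe set differed by more, with a log2 difference of 2.97. The part of fibroblasts or myeloid cells in the members' day 0 levels was not tested.

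**Figure D5:**
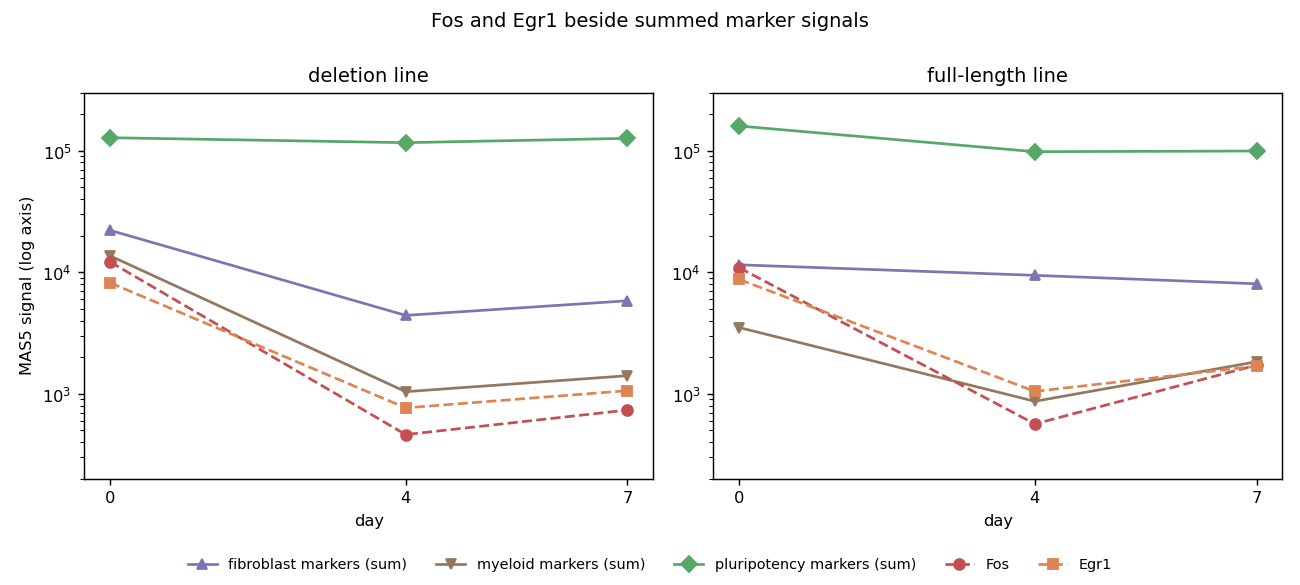
Signal (log axis) of Fos and Egr1 (dashed) and summed signal of fibroblast, myeloid and pluripotency markers (solid) by day in the deletion line (left) and the full-length line (right). Fos, Egr1 and the myeloid sum were highest at day 0 in both lines, and the fibroblast sum, at 22135 on day 0 in the deletion line and 11510 on day 0 in the full-length line, was higher in the deletion line on that day only, while without Acta2 it was also higher there at day 7, at 3802 against 3232.

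Genes with the most similar course were found by the root mean square distance between centred profiles over the 6 arrays. The 5 nearest to Fos outside the set were Mgp, a matrix protein gene, at 0.68, Tm4sf1 at 0.77, the proteoglycan gene Bgn at 0.80, Ctss at 0.81 and Socs3 at 0.82. Of these, Mgp and Bgn stand in the fibroblast list and Ctss in the myeloid list, and Mgp, Tm4sf1 and Ctss were at the floor on 3 or 4 later arrays. Within the set, Egr1 at 0.54 and Fosb at 0.59 were nearer to Fos than any of these, while Egr2 was at 0.84 and Jun and Jund were at 1.95 and 2.21. Nearest to Egr1 outside the set were Mgp at 0.36, Tm4sf1 at 0.36, Prmt8 at 0.41, Cavin2 at 0.49 and the AP-1 target Cd44 at 0.50. Jun, which varied little, lay within 0.08 of Saysd1, Ltb, Crem, Fbxw8 and Gucy2c, genes that also varied little. Likeness over 6 arrays of 1 experiment describes these arrays, which share their array scaling and lie in day 0 and later groups.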

How the data were processed

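RNA of 6 samples, 1 for each of 2 lines at days 0, 4 and 7, was measured on arrays and grouped by sample title. The deposited values are log2 signals. Per the submitters' processing notes, MAS5 was used. Not given in the sources used here are its version, the scaling target and the log base, which was read from the values (0 to 15.68). Trimmed means of the linear signals were 496.7 to 496.9 on all arrays, as after global scaling, which removes a shift of most genes in 1 direction. Nothing says that the samples came from repeated cultures, and the number of arrays limits the precision.

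Of 45037 probe sets, 34945 had 1 gene symbol in the platform annotation (dated 2016), 932 several and 9160 none. Symbols were checked by gene identifier against RefSeq (GRCm38.p6): 34741 probe sets matched and 0 symbols changed. Each gene took its brightest probe set, floored as in the report. With 1 array a group, day 4 over day 0, day 7 over day 0 and lines within a day were described by a 2-fold rule, with the brighter of both arrays 2 times the floor or more. Day 7 over day 4 and the line difference were fitted over all measured genes with limma 3.58.1 in R 4.3.3 (line and day additive, variance trend, two-sided, Benjamini-Hochberg at 0.05), with 2 residual degrees of freedom and a prior of 5.63. Lines stand in for replicates there, so a p sets a mean against how far the lines, or days, disagree. The fit was also run on simulated data with no line difference and no values set to the floor, so that run says nothing of genes at the floor.

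Members, lists and rules were chosen with earlier results of these data known, and promoter motifs after the sequences were seen. Named genes were the members, up to 4 genes per list with the largest day 4 over day 0 difference, and the 5 genes nearest to Fos, Jun and Egr1. Egr3, Egr4, Dusp6, Ier3, Acta2, the myeloid markers not past the limits, genes past the limits at day 7, and markers below the floor were named after their values were seen.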

Additional observations from a re-analysis of the deposited data

Results flagged for a closer look

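The lines differed in direction for 2 members, and neither difference was tested, since each line and day had 1 array. For Jun, day 4 over day 0 was -0.18 in the deletion line and 0.30 in the full-length line, a difference of -0.48, and its second probe set gave -0.21 and 0.61. For Fosl1, day 7 over day 4 was -0.81 in the deletion line, where day 7 was at the floor, and 0.10 in the full-length line, a difference of -0.915.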

How the results depend on the processing

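No paired analysis was possible because each line and day had 1 array and the labels give no replicate numbers to pair by. Days are compared within lines by the line term of the model, and the values without that term are given here. Members at least 2-fold lower at day 4 than at day 0 numbered 4 to 6 over 6 other settings, against 5, and at day 7 against day 0 4 to 6, against 6. Fos, Fosb, Junb and Egr1 were counted under every one of these settings in both contrasts. Egr2 was lost with the floor at the 60th percentile, where Egr2 and Fosb had day 4 differences of -1.295 and -2.485. Fosl1 was lost at day 7 without a floor, with probe sets averaged and with that higher floor, under which it was not measured. With 1 array left out, so that a count may rest on 1 line, 5 to 7 were lower at day 4 and 6 to 7 at day 7. Without the deletion line's day 0 array, whose source label disagrees with its title, 7 were lower at both times.

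The members' median at day 4, -1.49, moved to -1.185 with the 60th percentile floor, -1.23 with probe sets averaged and -1.40 without a floor (log2 of signal plus 16), and lay between -1.635 and -1.4875 with 1 array left out. At day 7, -1.27 moved to -1.38 with the 20th percentile floor, -1.04 with the 60th and -1.06 with probe sets averaged, and lay between -1.31 and -1.22 with 1 array left out. Over all genes, those 2-fold lower numbered 228 at day 4, 374 and 131 with the 20th and 60th percentile floors and 228 to 668 with 1 array left out, and at day 7 176, 312, 112 and 176 to 627.

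For day 7 over day 4, limma called 2 genes, 44 with arrays scaled to equal medians, 1 each with the 60th percentile floor, probe sets averaged, no floor, quantile normalization or no line in the model, 0 without a variance trend, and 0 with any 1 array left out. For the line difference it called 0, and 3 with equal medians. Members called were 0 in each of these fits. Of 528 single-gene values under other settings, 27 had the opposite sign, 25 of them with 1 array left out, and none of these had passed a threshold, while 11 others moved beyond the spread between lines. The line difference of Fosl2, -0.11, became 0.0933 with the 60th percentile floor and 0.11 with probe sets averaged. With 1 array left out, line differences ranged from -0.16 to 0.88 (Egr2), -0.0225 to 0.20 (Fosb), -0.32 to 0.14 (Fosl1), -0.36 to 0.18 (Fosl2), -0.18 to 0.16 (Ier2) and -0.18 to 0.06 (Junb). Day 7 over day 4 ranged from -0.44 to 0.76 (Egr2), -0.10 to 0.15 (Fosb), -0.74 to 0.0238 (Fosl1), -0.0425 to 0.32 (Ier2), -0.10 to 0.24 (Jun) and -0.11 to 0.35 (Jund). Jun had day 4 over day 0 values of -0.18 to 0.30 and day 7 over day 0 values of -0.16 to 0.42. The adjusted p of Fos for day 7 over day 4 ranged from 0.166 to 0.648 and that of Egr1 from 0.303 to 0.596 over the other settings, leaving out arrays apart.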
